A study of Homo sapiens
Mus musculus with 16 samples.

Results

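The host stroma of ScaBER tumours was compared between mice given nintedanib alone and mice given vehicle. The comparison takes 8 of the 16 libraries of the series, chosen by their labels, and reads the mouse-mapped transcripts of each. The ScaBER line, derived from a human squamous carcinoma of the bladder and long established in culture, was grown here as xenografts in Hsd:Athymic Nude-Foxn1nu mice, a strain that lacks a thymus and so lacks thymus-derived T cells but keeps natural killer, B and myeloid cells. All tumours were sampled after 14 days of treatment. The nintedanib group received 40 mg/kg and the vehicle group received 0.5% methylcellulose with 0.1% Tween80, with 4 libraries in each. The other 8 libraries, 4 from mice given nintedanib at 40 mg/kg together with alpelisib (BYL719, an inhibitor of the alpha isoform of PI3K) at 25 mg/kg and 4 from mice given alpelisib alone at 25 mg/kg, hold the same nintedanib contrast on top of alpelisib. The stated aim of the study was to learn what lies behind the synergy of the drugs in xenografts, with tumour and stromal transcripts told apart by species. A single xenografted line was used, and the labels do not link libraries to animals, so each p-value describes the spread among libraries, which may be technical.

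Nintedanib blocks the kinase domains of the receptors for vascular endothelial growth factor (VEGF), platelet-derived growth factor (PDGF) and fibroblast growth factor (FGF). In a growing tumour VEGF drives endothelial sprouts, each led by a tip cell that expresses Notch ligands and lays down basement membrane, while PDGF signalling recruits pericytes to the new vessel and PDGF and FGF signals act on fibroblasts. Because the tumour cells are human and the vessels, fibroblasts and leukocytes belong to the mouse, mouse-mapped reads report on these host cells.

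Of 23337 mouse genes listed, 17484 had a normalized value of at least 1 in at least 4 of the 16 libraries and were tested. A normalized value is a count of 3′-end reads divided by a factor for its library, and a log2 difference is on the scale of log2(value + 1). Depth was 3606008 to 5729435 mouse reads in the 8 libraries. Mouse reads made up 26.0% ± 5.42 of all reads with nintedanib and 22.2% ± 2.10 with vehicle (SD, n = 4 each), a difference of 3.80 percentage points that was not detectable (two-sided exact permutation p = 0.257, smallest possible 0.0286). Without nintedanib 4 the difference was 1.16 points. Nintedanib 4 stood apart, with skeletal muscle genes taking 5.12% of its mouse reads, against 0.0404% to 0.0530% in the other nintedanib libraries and 0.00471% to 0.788% in the vehicle libraries. Vehicle 1 was rich in adipocyte genes, which took 0.648% of its mouse reads, against 0.0162% to 0.0698% in the nintedanib libraries and 0.0153% to 0.0495% in the other vehicle libraries. The defining genes of vessels, fibroblasts and macrophages were present in every library, for example Pecam1 at 318 to 798 with nintedanib and 583 to 781 with vehicle.

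No gene passed the threshold. The limma fit over all 16 libraries called 0 of 17484 genes at a Benjamini-Hochberg adjusted p under 0.05 (0.0% of genes tested), and edgeR's quasi-likelihood test and limma-voom on recovered reads also called 0. Before adjustment, 1051 genes had a limma p under 0.05, which is 6.01% of genes tested, 531 of them higher (3.04%) and 520 lower (2.97%) with nintedanib. At the same unadjusted level edgeR gave 1059 (6.06%) and limma-voom 974 (5.57%). DESeq2, run as an alternative, called 29 of the 14587 genes it adjusted (0.199%), 12 higher (0.0823%) and 17 lower (0.117%). The 8 libraries did not overlap between groups for 341 genes that were higher (1.95%) and 305 that were lower (1.74%), and 27 of the 29 DESeq2 genes were among these. Because the adjusted threshold left no gene, members of each list are given below by their values, by counts at an unadjusted limma p under 0.05, and by the list median, beside a median of 0.02 over all genes tested. Each list count stands beside the shares over all genes, 3.04% higher and 2.97% lower at that p. A single member of a longer list is near these shares. In bulk tumour RNA, fewer cells of a type and less RNA per cell cannot be told apart.

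**Figure D1:**
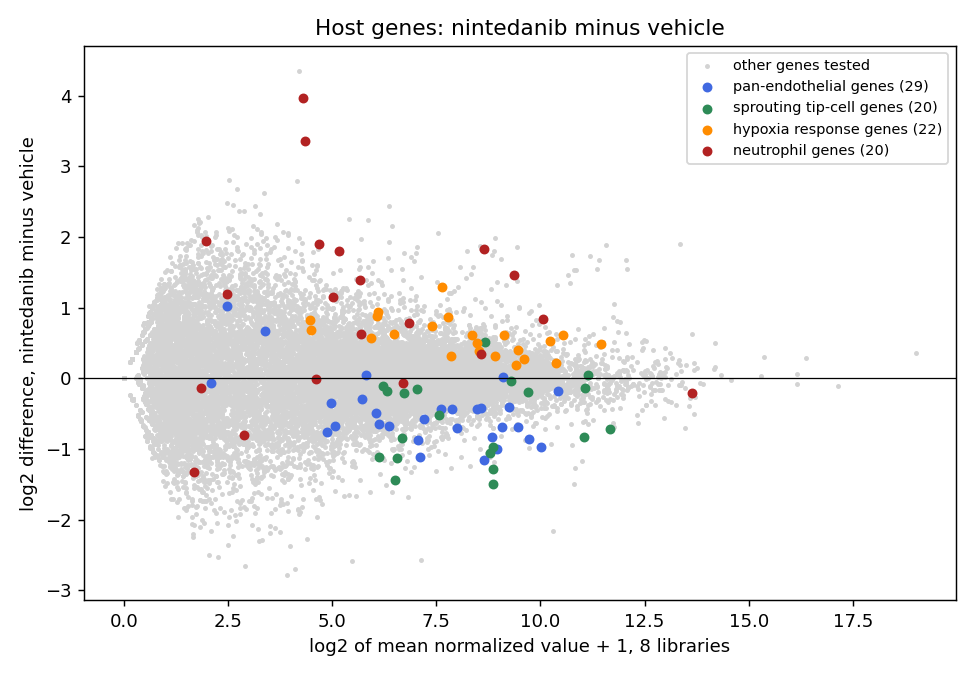
Every point is a mouse gene tested, placed by the log2 of its mean normalized value plus 1 over the 8 libraries (x axis) and its log2 difference, nintedanib minus vehicle (y axis). Pan-endothelial and tip-cell genes lie mostly below 0, with list medians of -0.57 and -0.62, while hypoxia response genes (median 0.59) and many neutrophil genes (median 1.0) lie above 0.

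Most endothelial genes stood lower with nintedanib. Of 29 pan-endothelial genes tested, 25 were below 0 and 4 above 0 (47.9% and 52.0% of all genes tested), the median log2 difference was -0.57, and 10 had an unadjusted p under 0.05, all lower. Mcam, which encodes the adhesion molecule CD146 of endothelial cells and pericytes, had values of 276, 273, 342 and 255 with nintedanib, against 610, 523, 578 and 686 with vehicle. The lowest vehicle library was above the highest nintedanib library by a wide margin. The log2 difference was -1.06 (SE 0.17, limma adjusted p = 0.0546), the lowest adjusted p in the table together with Gm5483, described with the neutrophil genes.

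Cdh5, the endothelial cadherin of adherens junctions, had values of 187, 302, 349 and 534 with nintedanib, against 543, 521, 702 and 865 with vehicle. Nintedanib 4 lay inside the vehicle range and the other 3 nintedanib libraries lay below it. Its log2 difference was -1.0 (SE 0.25, limma adjusted p = 0.399). Cd34, a sialomucin of endothelial and progenitor cells, stood at 642, 803, 645 and 693 with nintedanib, against 1850, 1163, 1213 and 1325 with vehicle. Its groups did not overlap, with a log2 difference of -0.98 (SE 0.25, limma adjusted p = 0.426). Plvap, which forms the diaphragms of endothelial fenestrae, was also separated, at 426 to 777 with nintedanib and 870 to 1224 with vehicle. Esam, an endothelial junction molecule, stood at 341 to 482 with nintedanib and 620 to 728 with vehicle, again with no overlap.

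Nintedanib 4 did not share the lower level of every endothelial gene. Tie1, an orphan receptor of endothelial cells that modulates angiopoietin signalling, had values of 42.9, 85.8, 58.6 and 198 with nintedanib, against 187, 144, 188 and 190 with vehicle. Nintedanib 4 was thus the highest of the 8 libraries for Tie1 while the other 3 were the lowest. Pecam1, the junction molecule CD31, ran in the same pattern at 318, 504, 533 and 798 with nintedanib, against 670, 583, 681 and 781 with vehicle, and its log2 difference was -0.40 (SE 0.27, limma adjusted p = 0.896). The pan-endothelial score, the mean log2 value of the 29 genes with the vehicle mean set to 0, was -0.75, -0.52, -0.71 and 0.04 in the 4 nintedanib libraries and -0.11 to 0.17 in the vehicle libraries. Without nintedanib 4, 16 of the 29 genes had an unadjusted p under 0.05 and the list median was -0.73. When libraries were scaled to the total of human and mouse reads, which moved the median of all genes to 0.14, 3 of the 29 genes were at that level and the list median was -0.44. The part of the muscle content of nintedanib 4 in these values was not tested.

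**Figure D2:**
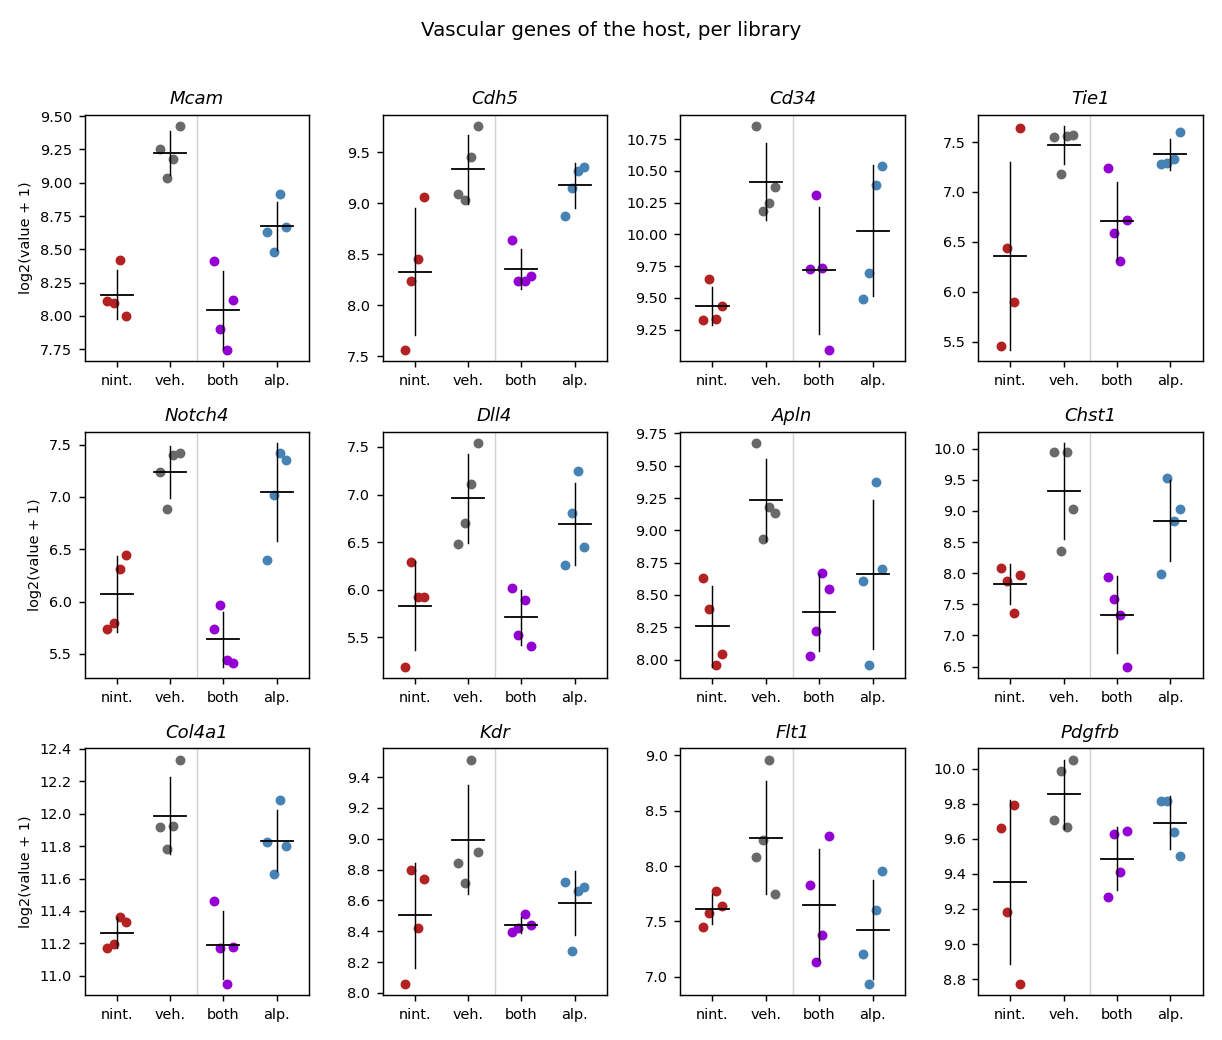
Each panel is a vascular gene, with log2(value + 1) on the y axis and the 4 groups on the x axis (nint., nintedanib; veh., vehicle; both, nintedanib with alpelisib; alp., alpelisib). Points are libraries, horizontal bars group means and vertical bars 1 SD; Mcam, Cd34, Notch4, Dll4, Apln, Chst1 and Col4a1 show no overlap between nintedanib and vehicle, while Cdh5, Tie1, Kdr, Flt1 and Pdgfrb do overlap.

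Sprouting tip-cell genes stood lower in all 4 nintedanib libraries. Of 20 genes tested, 18 were below 0, 11 had an unadjusted p under 0.05 and 9 did not overlap between groups, all 9 lower with nintedanib. Over all genes tested, 2.97% were lower at that p and 1.74% were lower without overlap. The list median was -0.62, and the list score was -0.52, -0.53, -0.51 and -0.81 in the nintedanib libraries, against -0.29 to 0.24 in the vehicle libraries. The number of members at that unadjusted level stayed at 10 or 11 when any of the 8 libraries was left out. DESeq2 called 3 of the members, Mcam, Chst1 and Col4a1.

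Apln encodes apelin, a peptide secreted by tip cells. It had values of 396, 335, 247 and 263 with nintedanib, against 818, 486, 581 and 561 with vehicle, without overlap (log2 difference -0.97, SE 0.25, limma adjusted p = 0.426). Esm1, the tip-cell proteoglycan endocan, stood at 30.8, 84.9, 42.2 and 39.8 with nintedanib, against 141, 101, 94.1 and 187 with vehicle. All 4 nintedanib libraries were below all 4 vehicle libraries, with a log2 difference of -1.44 (SE 0.47, limma adjusted p = 0.647). Angpt2, the antagonist ligand of the Tie receptor Tek that tip cells release, stood at 47.1 to 109 with nintedanib and 87.1 to 154 with vehicle, with overlap. Chst1, a sulfotransferase for keratan sulfate, had values of 271, 233, 163 and 250 with nintedanib, against 986, 328, 986 and 523 with vehicle. The vehicle libraries were spread widely, but each was above every nintedanib library, and the log2 difference was -1.50 (SE 0.36, limma adjusted p = 0.367). Kcne3, a potassium channel subunit, was lower without overlap (24.3 to 58.8 with nintedanib, 69.2 to 127 with vehicle), and Trp53i11, a membrane protein induced by p53, was lower with overlap of nintedanib 4 (177 to 405 with nintedanib, 391 to 833 with vehicle).

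Notch genes of the arterial and tip-cell programme were lower in the same libraries. Of 14 endothelial Notch and arterial genes tested, 12 were below 0, 6 had an unadjusted p under 0.05, all lower, and 5 were separated between groups. The median was -0.48, and the list score was -0.58 to -0.84 in the nintedanib libraries and -0.16 to 0.28 in the vehicle libraries, without overlap. Notch4, the endothelial Notch receptor, had values of 52.2, 54.4, 78.5 and 86.3 with nintedanib, against 150, 117, 168 and 171 with vehicle. Its groups did not overlap, its log2 difference was -1.16 (SE 0.26, limma adjusted p = 0.271), and DESeq2 called it. Dll4, the Notch ligand of tip cells, stood at 35.4, 77.5, 59.8 and 59.7 with nintedanib, against 88.5, 103, 138 and 186 with vehicle, also without overlap (log2 difference -1.13, SE 0.30, limma adjusted p = 0.434). Hey1, a transcriptional repressor induced by Notch, stood at 19.4 to 32.8 with nintedanib and 42.3 to 56.0 with vehicle. The arterial genes Gja5, a connexin, and Hey2, a second Notch-induced repressor, were listed at 0 in the first 3 nintedanib libraries, but their vehicle values were low too, at 1.21 to 9.55 and 1.21 to 10.9.

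Capillary and venous genes were more evenly split. Of 15 tested, 8 were below 0 and 7 above 0, the median was -0.36, and 4 had an unadjusted p under 0.05, all lower. The count of lower members was 2 without vehicle 3 and 6 without nintedanib 4, where the median was -0.56, and without vehicle 1 the median was -0.23. Without vehicle 2 there were also 2 higher members. Gpihbp1, which carries lipoprotein lipase across capillary endothelium, stood at 62.5 to 121 with nintedanib and at 254, 92.1, 319 and 394 with vehicle, so that vehicle 2 fell among the nintedanib values. Ephb4, the ephrin receptor of veins, was separated (51.7 to 82.0 with nintedanib, 88.3 to 135 with vehicle). Lymphatic endothelial genes had a median of 0.35 over 11 tested, with 8 above 0 and 1 at an unadjusted p under 0.05, higher, and without nintedanib 4 the median was 0.07.

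The receptors that nintedanib blocks were measured as transcripts. Of 16 target kinases tested, 9 were above 0 and 7 below, the median was 0.03 (-0.09 without vehicle 2), and at an unadjusted p under 0.05 there were 3 lower (Kdr, Flt1 and Pdgfrb) and 1 higher (Flt3). The count of lower members was 1 without nintedanib 1, nintedanib 2 or vehicle 3, and 0 under scaling to human plus mouse reads. Kdr, the main signalling VEGF receptor of endothelial cells, had values of 266, 445, 341 and 426 with nintedanib, against 458, 418, 730 and 480 with vehicle. Vehicle 2 fell inside the nintedanib range, and the log2 difference was -0.49 (SE 0.20, limma adjusted p = 0.735). Flt1, the VEGF receptor that also acts as a decoy, stood at 174, 190, 218 and 198 with nintedanib, against 269, 301, 497 and 214 with vehicle. Its groups overlapped only between nintedanib 3 and vehicle 4, and the log2 difference was -0.65 (SE 0.27, limma adjusted p = 0.754). Pdgfrb, the PDGF receptor of pericytes, stood at 810, 581, 886 and 437 with nintedanib, against 835, 1015, 811 and 1060 with vehicle, with overlap (log2 difference -0.50, SE 0.20, limma adjusted p = 0.734).

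The remaining receptors gave no separation between groups except Flt3. Flt3, the receptor of dendritic cell progenitors, had values of 14.9, 26.8, 30.5 and 23.2 with nintedanib, against 10.1, 9.95, 4.83 and 13.6 with vehicle, a log2 difference of 1.25 (SE 0.46, limma adjusted p = 0.705). Pdgfra, the PDGF receptor of fibroblasts, stood at 338 to 940 with nintedanib and 381 to 577 with vehicle, where nintedanib 4 was the lowest of all 8 libraries and the other 3 nintedanib libraries were the highest. Fgfr1, the FGF receptor of mesenchymal cells, stood at 868 to 1656 with nintedanib and 1190 to 1690 with vehicle. Differences for Fgfr2 (-0.11), Fgfr3 (0.08), Flt4 (-0.36), Kit (-0.33) and Lyn (0.21) had limma adjusted p of 0.908 or more, and the direction of Fgfr2, Fgfr3 and Flt4 depended on the fit or the libraries kept. The other 5 kinases differed by 0.01 to 0.90, with unadjusted limma p of 0.27 or more. Among 16 ligands tested the median was 0.22, and Fgf18 alone had an unadjusted p under 0.05, at 18.8 to 39.8 with nintedanib and 4.61 to 24.1 with vehicle. The ligand median was -0.01 without nintedanib 3 or vehicle 2 and 0.04 without genes correlated with a human namesake, and 0 ligands were higher at that level without vehicle 1 or vehicle 2. Vegfa stood at 478, 760, 667 and 253 with nintedanib, against 350, 277, 530 and 497 with vehicle, where nintedanib 4 was the lowest library and 2 of the other 3 nintedanib libraries were the highest (log2 difference 0.31, SE 0.38, limma adjusted p = 0.941). Pgf, placental growth factor and a ligand of Flt1, ran from 169 to 761 with nintedanib and from 103 to 494 with vehicle.

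Genes of the vascular basement membrane, pericytes and smooth muscle also stood mostly below 0. These lists are not independent of the endothelial lists. Col4a1, Col4a2, Nid2 and Lama4 are also on the tip-cell list, and Mcam is on both the tip-cell and pericyte lists. Of 13 vascular basement membrane genes tested, 12 were below 0, the median was -0.35, and 5 had an unadjusted p under 0.05, all lower (2 under scaling to human plus mouse reads). Col4a1, a chain of type IV collagen, had values of 2307, 2342, 2631 and 2582 with nintedanib, against 3865, 3521, 3885 and 5164 with vehicle. The nintedanib libraries lay close together and all below vehicle, with a log2 difference of -0.72 (SE 0.18, limma adjusted p = 0.399). Its partner chain Col4a2 stood at 1315 to 1727 with nintedanib and 1849 to 3395 with vehicle, and Nid2, a nidogen that links laminin to collagen, at 130 to 178 with nintedanib and 179 to 274 with vehicle, both without overlap. Col18a1, the parent chain of endostatin, stood at 374 to 577 with nintedanib and 526 to 1112 with vehicle, with overlap.

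Of 15 pericyte genes tested, 12 were below 0, the median was -0.37 and 4 had an unadjusted p under 0.05, all lower (2 without vehicle 2). Mcam and Pdgfrb are 2 of these. Higd1b, a mitochondrial protein enriched in pericytes, had values of 19.6, 18.5, 22.3 and 22.1 with nintedanib, against 38.7, 58.5, 43.4 and 38.2 with vehicle, without overlap (log2 difference -1.06, SE 0.36, limma adjusted p = 0.647). Gucy1a3, a subunit of the nitric oxide receptor guanylate cyclase, was separated at 3.69 to 24.6 with nintedanib and 25.3 to 51.0 with vehicle. Smooth muscle contractile genes had a median of -0.42 over 14 tested, with 3 at an unadjusted p under 0.05, all lower (1 without nintedanib 4, vehicle 1 or vehicle 3). Under scaling to human plus mouse reads the counts were 2 for pericyte genes, 1 for smooth muscle genes and 2 for the capillary and venous list. Acta2, smooth muscle actin, which myofibroblasts also express, stood at 7433, 6530, 8666 and 3874 with nintedanib, against 10546, 8273, 9921 and 9038 with vehicle. Nintedanib 3 exceeded vehicle 2 and the other 3 nintedanib libraries lay below all vehicle libraries (log2 difference -0.57, SE 0.24, limma adjusted p = 0.754).

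Among the immune lists, neutrophil genes had the most members higher at an unadjusted p under 0.05. Of 20 tested, 14 were above 0, the median was 1.0, and 8 had an unadjusted p under 0.05, all higher with nintedanib. The 8 are S100a8, S100a9, 3 stefin genes, the lectin receptors Clec4e and Clec4d, and Mrgpra2a. S100a8, which encodes a subunit of the calcium-binding protein calprotectin, had values of 525, 858, 953 and 236 with nintedanib, against 180, 177, 121 and 160 with vehicle. S100a9, the other subunit, stood at 944, 918, 1542 and 509 with nintedanib, against 373, 398, 290 and 273 with vehicle. For both genes nintedanib 4 was the lowest nintedanib library and still above every vehicle library. The log2 differences were 1.84 for S100a8 (SE 0.42, limma adjusted p = 0.313) and 1.46 for S100a9 (SE 0.31, limma adjusted p = 0.265), and DESeq2 called both. Their human namesakes were abundant in the tumour cells, with mean normalized values in the human table of 12596 with nintedanib and 11476 with vehicle for S100A8, and 17906 with nintedanib and 10539 with vehicle for S100A9. Over 16 libraries the mouse and human values correlated with Pearson r of 0.18 for the first gene and 0.31 for the second, and the part of human reads in the mouse values was not tested.

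The stefin genes, cysteine protease inhibitors of neutrophils, had low values and a large difference. Gm5483 is not a member of the neutrophil list and is not in its counts. It had values of 22.4, 27.7, 64.5 and 21.0 with nintedanib, against 4.61, 0, 0 and 0 with vehicle. Every nintedanib library thus exceeded the single vehicle library with reads. The log2 difference was 4.35 (SE 0.70, limma adjusted p = 0.0546), and without vehicle 1 it was past the threshold. Stfa2 stood at 44.8, 29.5, 53.9 and 15.5 with nintedanib, against 0.922, 1.24, 6.03 and 2.73 with vehicle. BC100530 stood at 16.8, 38.8, 73.8 and 15.5 with nintedanib, against 0.922, 1.24, 2.41 and 0 with vehicle. These genes belong to a cluster of closely similar copies, so the assignment of reads among them is uncertain.

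The groups overlapped for 4 further members of the neutrophil list. Cxcr2, the chemokine receptor that guides neutrophils, stood at 350, 554, 485 and 330 with nintedanib, against 267, 297, 466 and 318 with vehicle, with overlap (log2 difference 0.35, SE 0.25, limma adjusted p = 0.896). Mmp9, gelatinase B, which macrophages also make, stood at 12673, 11259, 19429 and 5772 with nintedanib, against 13428, 12930, 9126 and 17894 with vehicle, a log2 difference of -0.21 (SE 0.37, limma adjusted p = 0.963) that was 0.11 without nintedanib 4. The list as a whole took 0.164% to 0.521% of mouse reads with nintedanib and 0.225% to 0.402% with vehicle. Clec4e, a receptor for mycobacterial and dead-cell ligands, ran from 18.7 to 147 with nintedanib and from 6.82 to 20.5 with vehicle, and its paralog Clec4d from 38.7 to 128 with nintedanib and from 10.9 to 42.4 with vehicle. In each case the top value was nintedanib 3.

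Cxcl13, the chemokine that attracts B cells, gave a clear separation with a narrow vehicle range. It had values of 127, 105, 207 and 119 with nintedanib, against 26.7, 24.9, 24.1 and 20.5 with vehicle, and a log2 difference of 2.45 (SE 0.52, limma adjusted p = 0.265). DESeq2 called it, and so did limma fitted to the 8 libraries alone. Cxcl13 is on the B cell and plasma cell list, of which 12 genes were tested, 11 of them above 0, with a median of 0.94. At an unadjusted limma p under 0.05, 2 of these were higher and 1 lower. The list took 0.0116% to 0.0168% of mouse reads with nintedanib and 0.0148% to 0.0183% with vehicle. Ltb, lymphotoxin beta, which organizes lymphoid tissue, stood at 66.2, 124, 84.4 and 142 with nintedanib, against 57.2, 33.6, 32.6 and 38.2 with vehicle. It was separated, with a log2 difference of 1.32 (SE 0.32, limma adjusted p = 0.399), and DESeq2 called it.

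Of 23 macrophage genes tested, 18 were above 0 with a median of 0.09 (0.21 without vehicle 1 or nintedanib 4, 0.01 without vehicle 2), and 4 had an unadjusted p under 0.05, all higher (2 without vehicle 1). Mrc1, the mannose receptor CD206, had values of 1249, 1464, 825 and 952 with nintedanib, against 669, 647, 916 and 453 with vehicle. Vehicle 3 exceeded nintedanib 3, and the log2 difference was 0.75 (SE 0.23, limma adjusted p = 0.615). Msr1, a scavenger receptor, stood at 318 to 392 with nintedanib and 169 to 376 with vehicle, Itgam, the integrin CD11b, at 372 to 563 with nintedanib and 273 to 372 with vehicle, and Chi3l3, a chitinase-like protein, at 1.11 to 28.6 with nintedanib and 0 to 5.53 with vehicle. Dendritic cell and MHC class II genes had a median of 0.64 over 18 tested and 2 members at an unadjusted p under 0.05, both higher. The count was 5 without vehicle 1, 4 without nintedanib 1 or nintedanib 3, 3 without vehicle 2 or vehicle 4 and 7 with tissue scores as covariates, and without nintedanib 4 the median was 0.25. H2-Ab1, a class II beta chain, stood at 3755, 4706, 3570 and 7678 with nintedanib, against 3910, 2526, 2344 and 2302 with vehicle, where vehicle 1 reached into the nintedanib range. NK and T cell genes had a median of 0.76 over 19 tested and 0.21 without nintedanib 4, with 1 member at an unadjusted p under 0.05, the NK receptor Klrb1c, at 1.85 to 6.64 with nintedanib and 0 to 2.73 with vehicle. NK and T cell genes took 0.0201% of mouse reads in nintedanib 4, against 0.00531% to 0.00662% in the other nintedanib libraries and 0.00381% to 0.00677% in the vehicle libraries.

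Mast cell genes had a median of 0.44 over 14 tested, with the tryptase Tpsab1 at 168, 37.8, 45.7 and 25.4 with nintedanib, against 19.4, 14.9, 19.3 and 1.36 with vehicle, without overlap (log2 difference 2.26, SE 0.81, limma adjusted p = 0.697). The mast cell carboxypeptidase Cpa3 overlapped, at 35.4 to 227 with nintedanib and 9.55 to 46.0 with vehicle. Of 30 chemokine and cytokine genes tested, 23 were above 0 with a median of 0.54 (0.31 without nintedanib 3), and 1 was higher and 1 lower at an unadjusted p under 0.05. The count of higher members was 6 without nintedanib 4, 3 without nintedanib 1, vehicle 1 or vehicle 4, 2 without nintedanib 2, and 0 without nintedanib 3 or vehicle 3, and edgeR gave 5. The higher gene was Ccl3, a macrophage chemokine, at 41.0, 48.0, 391 and 60.8 with nintedanib, against 24.0, 36.1, 12.1 and 58.7 with vehicle. Its difference rested largely on nintedanib 3. The lower gene was Cx3cl1, the membrane-bound chemokine of endothelium, at 78.4, 62.7, 77.4 and 122 with nintedanib, against 160, 101, 182 and 186 with vehicle. Of 27 interferon response genes tested, 19 were below 0, the median was -0.17 and 1 was lower at that level. The median was -0.03 without nintedanib 1 or vehicle 4 and under scaling to human plus mouse reads, and 0 were lower without nintedanib 1, nintedanib 2 or vehicle 3.

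Fibroblast genes stood mostly above 0. Of 22 fibroblast genes tested, 14 were above 0, the median was 0.31 and 3 had an unadjusted p under 0.05, all higher. Without nintedanib 4 the count was 6 and the median 0.50, and the count was 6 with tissue scores as covariates and 5 with only the 8 libraries or under scaling to human plus mouse reads. Cilp, a secreted matrix protein of cartilage and fibroblasts, had values of 1172, 936, 646 and 1245 with nintedanib, against 343, 556, 221 and 452 with vehicle. Its groups did not overlap, its log2 difference was 1.38 (SE 0.30, limma adjusted p = 0.271), and DESeq2 called it. Fbln2, a fibulin of elastic fibres, was separated at 2572 to 3602 with nintedanib and 1225 to 2318 with vehicle. Dcn, the collagen-binding proteoglycan decorin, stood at 2849 to 6392 with nintedanib and 1875 to 4174 with vehicle, with overlap. Prg4, the lubricating proteoglycan lubricin, stood at 84.9, 156, 108 and 174 with nintedanib, against 33.2, 18.7, 44.7 and 38.2 with vehicle, without overlap (log2 difference 1.93, SE 0.52, limma adjusted p = 0.455), and DESeq2 called it too.

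Of 20 fibril collagen and collagen processing genes tested, 8 were above 0 and 12 below, with a median of -0.06 and 0 at an unadjusted p under 0.05 by limma. Without nintedanib 4 the median was 0.17 with 1 member higher at that level, and under scaling to human plus mouse reads it was 0.07 with 1 higher. Col1a1, a chain of type I collagen, stood at 191967, 136664, 166498 and 75664 with nintedanib, against 110700, 152323, 180426 and 147215 with vehicle. The groups overlapped fully and nintedanib 4 was the lowest library (log2 difference -0.11, SE 0.59, limma adjusted p = 0.986). It was 0.17 without nintedanib 4 and 0.02 under scaling to human plus mouse reads. Of 20 myofibroblast and TGF-beta response genes tested, the median was -0.06, with 1 higher and 2 lower at an unadjusted p under 0.05. Without nintedanib 4 the median was 0.20 with 2 higher and 1 lower, without vehicle 3 it was 0.05 with 1 higher and 1 lower, and 0 were higher without nintedanib 1, 2 or 3 or vehicle 1 or 2. Lox, the collagen cross-linking oxidase, is the higher gene, at 222 to 315 with nintedanib and 84.8 to 249 with vehicle. Itga11, the collagen receptor of myofibroblasts, was separated, at 230, 215, 175 and 130 with nintedanib, against 302, 346, 273 and 269 with vehicle (log2 difference -0.69, SE 0.19, limma adjusted p = 0.516). Mmp14, a membrane-bound collagenase, was the single member of 19 in the metalloproteinase list at that level, at 5910 to 10898 with nintedanib and 10521 to 18243 with vehicle, with overlap. Without nintedanib 4 that list had 2 higher members, 0 lower and a median of 0.10, against -0.05 with all libraries.

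**Figure D3:**
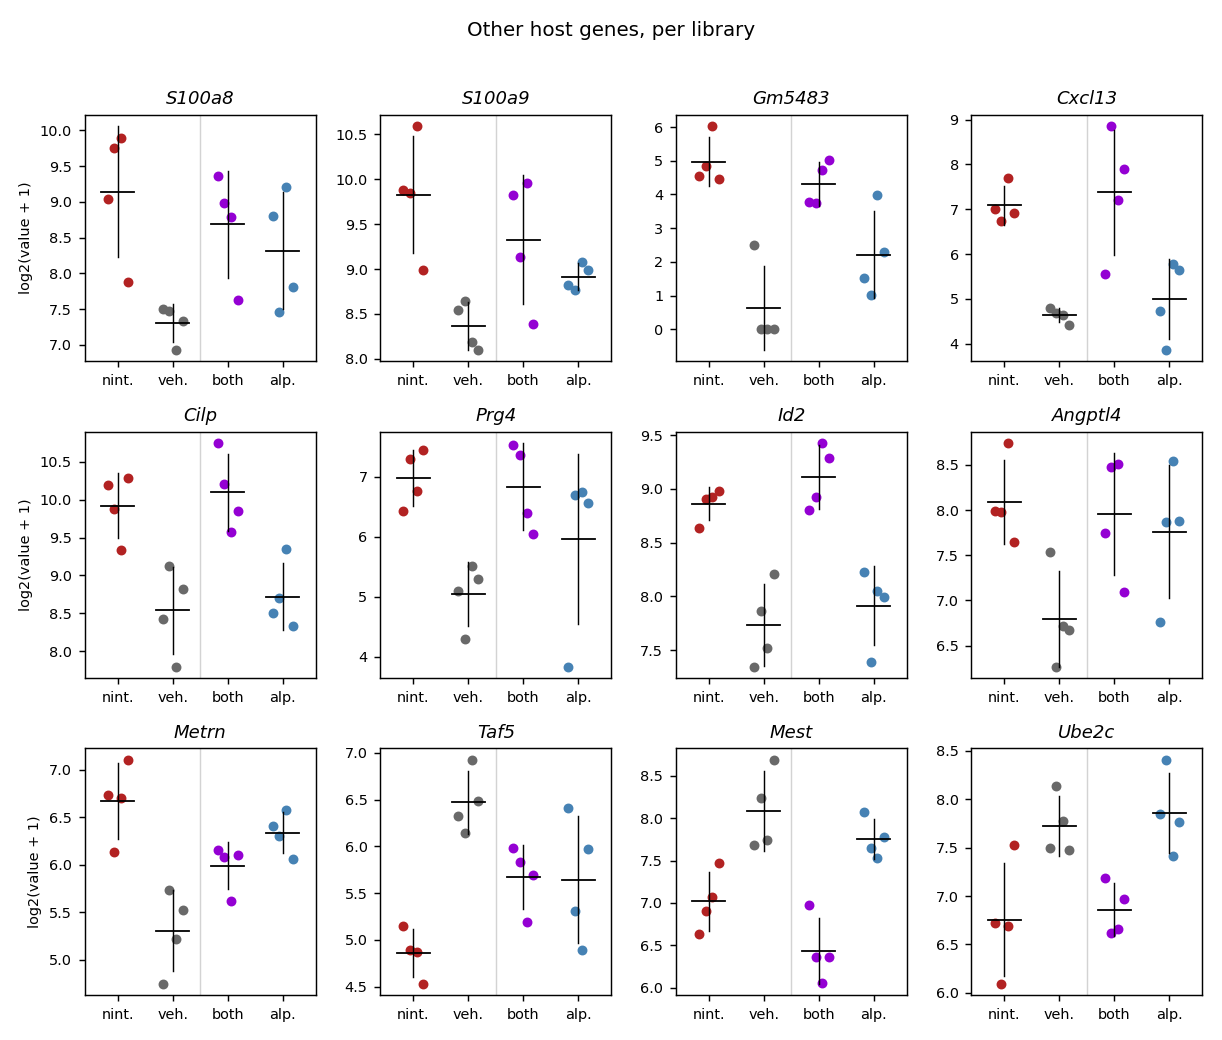
Panels as in the plot of vascular genes, for genes of neutrophils (S100a8, S100a9, Gm5483), B cell attraction (Cxcl13), matrix (Cilp, Prg4), hypoxia (Angptl4), mitosis (Ube2c) and others. Points are libraries, horizontal bars means and vertical bars 1 SD of log2(value + 1). Cxcl13, Cilp and Id2 are high in both groups given nintedanib, but for Cxcl13 combination 1 (45.8) lies below alpelisib 3 (53.7) and alpelisib 4 (49.3). Metrn is high and Taf5 low in the nintedanib group against vehicle without a like difference between both drugs and alpelisib.

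Hypoxia response genes, the targets of the hypoxia-inducible factors, were all above 0. The 22 genes tested ran from 0.19 to 1.29 with a median of 0.59, and 3 had an unadjusted p under 0.05, all higher, which are Angptl4, Pdk1 and Lox. The list score was 0.99, 0.82, 0.81 and -0.28 in the nintedanib libraries, against -0.11, -0.76, 0.42 and 0.45 in the vehicle libraries, so that 3 nintedanib libraries stood above all vehicle libraries and nintedanib 4 stood among them. The count was 10 without nintedanib 4, 5 without vehicle 3, 6 without vehicle 4, 8 with muscle, fat and skin scores as covariates and 11 under scaling to human plus mouse reads, and the median was 0.34 without vehicle 2. Of the 21 members with a human namesake to compare, 16 had a Pearson r over 0.7 between mouse and human values across 16 libraries, and the part of human reads in these mouse values was not tested. Angptl4, an inhibitor of lipoprotein lipase, had values of 253, 251, 428 and 199 with nintedanib, against 184, 75.9, 104 and 101 with vehicle, without overlap (log2 difference 1.29, SE 0.37, limma adjusted p = 0.516). Pdk1, the kinase that turns off pyruvate dehydrogenase, was also separated, at 61.9 to 109 with nintedanib and 28.6 to 56.0 with vehicle. Bnip3, a mitophagy receptor, stood at 829, 739, 755 and 343 with nintedanib, against 322, 243, 599 and 614 with vehicle, with nintedanib 4 far from the other 3.

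Glycolysis enzyme genes had 16 of 18 members above 0 and a median of 0.32, which was 0.06 without vehicle 2. The 2 members at an unadjusted p under 0.05 were both higher. Pgk1, phosphoglycerate kinase, stood at 1125 to 1579 with nintedanib and 649 to 1137 with vehicle, with nintedanib 4 below vehicle 4. Ldha, lactate dehydrogenase A, stood at 2519 to 4236 with nintedanib and 1632 to 2430 with vehicle, without overlap, and nintedanib 4, the library rich in muscle transcripts, was the highest. Respiratory chain genes had a median of 0.14 (-0.07 without nintedanib 4) over 22 tested and 0 members at an unadjusted p under 0.05 by limma.

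Mitosis genes had their lowest scores in 3 of the 4 nintedanib libraries. Of 23 tested, 16 were below 0, the median was -0.23 (-0.46 without nintedanib 4, -0.07 without vehicle 2) and 6 had an unadjusted p under 0.05, all lower (3 without nintedanib 2, without vehicle 2 or under scaling to human plus mouse reads), and none of the members tested was separated between groups. The score was -0.69, -0.52, -0.57 and 0.23 in the nintedanib libraries, against -0.50, 0.48, 0.06 and -0.04 in the vehicle libraries. Ube2c, the ubiquitin-conjugating enzyme of the anaphase-promoting complex, had values of 104, 67.4, 102 and 184 with nintedanib, against 180, 281, 217 and 177 with vehicle, so that nintedanib 4 alone lay in the vehicle range (log2 difference -0.96, SE 0.27, limma adjusted p = 0.516). Plk1, a mitotic kinase, stood at 56.0, 66.4, 48.1 and 136 with nintedanib, against 180, 192, 136 and 95.5 with vehicle. DNA replication genes had a median of 0.02 over 24 tested, with 0 at an unadjusted p under 0.05 by limma.

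Genes that read out growth factor signalling were mixed. Id2, an inhibitor of helix-loop-helix transcription factors, had values of 397, 479, 485 and 504 with nintedanib, against 161, 231, 182 and 295 with vehicle. All nintedanib libraries were above all vehicle libraries, with a log2 difference of 1.13 (SE 0.22, limma adjusted p = 0.256), and DESeq2 called it. Human ID2 had mean normalized values of 173 with nintedanib and 91.9 with vehicle. Mouse and human values correlated with Pearson r of 0.66 over 16 libraries, and the part of human reads in the mouse values was not tested. Id1, a relative of Id2 and a target of bone morphogenetic protein (BMP) signalling in endothelium, was on the other side. It stood at 150 to 260 with nintedanib and 193 to 388 with vehicle, with overlap (log2 difference -0.61, SE 0.26, limma adjusted p = 0.754). Bmp4, a BMP ligand, was separated at 36.3 to 85.2 with nintedanib and 124 to 147 with vehicle. Over the 17 Id and BMP feedback genes tested the median was -0.11, with 1 higher and 3 lower at an unadjusted p under 0.05 (1 lower without nintedanib 3 or vehicle 4, and 0 under scaling to human plus mouse reads). ERK feedback and immediate early genes had a median of 0.03 (-0.12 without nintedanib 3) over 22 tested and 1 lower member at that level, Dusp6, a phosphatase that turns off ERK, at 855 to 2215 with nintedanib and 1783 to 3277 with vehicle.

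FOXO target genes, which PI3K signalling holds down, had 16 of 20 members above 0 and a median of 0.46. At an unadjusted p under 0.05 there were 5 higher members and 0 lower, but the count was 1 without vehicle 1, 2 without nintedanib 4 or vehicle 4, and 3 without nintedanib 1, 2 or 3, and 1 with tissue scores as covariates. Irs2, an adaptor of the insulin receptor, was separated, at 113 to 169 with nintedanib and 47.0 to 99.0 with vehicle. Bcl6, a transcriptional repressor, stood at 196 to 285 with nintedanib and 144 to 206 with vehicle, and Foxo3 itself was near the detection limit, at 1.87 to 7.03 with nintedanib and 0 to 3.73 with vehicle.

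Beyond the lists, the genes of smallest p included several with separated groups and roles outside vessels or immunity. Metrn, meteorin, a secreted neurotrophic factor, had values of 105, 69.2, 103 and 137 with nintedanib, against 25.8, 52.3, 36.2 and 45.0 with vehicle (log2 difference 1.36, SE 0.27, limma adjusted p = 0.265). Dio3, which inactivates thyroid hormone, stood at 68.1, 65.5, 73.8 and 174 with nintedanib, against 12.9, 11.2, 26.6 and 24.6 with vehicle. Asah1, lysosomal acid ceramidase, stood at 211 to 268 with nintedanib and 95.3 to 173 with vehicle. All 3 genes were higher in each nintedanib library than in any vehicle library.

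Among genes on the lower side, Taf5, a subunit of the general transcription factor TFIID, had values of 34.5, 28.6, 28.1 and 22.1 with nintedanib, against 79.3, 69.7, 121 and 88.7 with vehicle (log2 difference -1.61, SE 0.33, limma adjusted p = 0.265). Hoxc9, a homeobox gene of body position, stood at 340, 227, 224 and 210 with nintedanib, against 510, 459, 629 and 390 with vehicle. Neither gene showed overlap between the groups. Plxnd1, the endothelial receptor for semaphorins, stood at 191 to 356 with nintedanib and 506 to 787 with vehicle, and Pde2a, a phosphodiesterase stimulated by cyclic GMP, at 137 to 246 with nintedanib and 317 to 475 with vehicle. Mest, an imprinted gene of mesoderm, stood at 97.9 to 176 with nintedanib and 204 to 412 with vehicle, and Cdc42ep1, an effector of the GTPase Cdc42, at 56.9 to 71.0 with nintedanib and 106 to 163 with vehicle. Each of these 4 was separated between groups.

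DESeq2 also called 7 further genes on the lower side. Edc4, a scaffold of mRNA decapping, stood at 124 to 163 with nintedanib and 214 to 307 with vehicle, and Banp, a nuclear matrix protein, at 89.5 to 144 with nintedanib and 192 to 286 with vehicle. Ska1, a kinetochore protein, stood at 7.03 to 16.6 with nintedanib and 22.9 to 59.7 with vehicle, Ano1, a calcium-activated chloride channel, at 16.4 to 34.5 with nintedanib and 48.3 to 110 with vehicle, and E330013P06 at 5.54 to 11.2 with nintedanib and 21.7 to 74.6 with vehicle. These 5 were separated between groups. Wfdc2, a protease inhibitor of epithelia, was at 0 in all nintedanib libraries and at 62.7, 0, 0 and 0 with vehicle, so its call comes from vehicle 1 alone, while Aldh3b2, an aldehyde dehydrogenase, was at 0 in all nintedanib libraries and at 41.5, 6.22, 0 and 4.09 with vehicle.

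**Figure D4:**
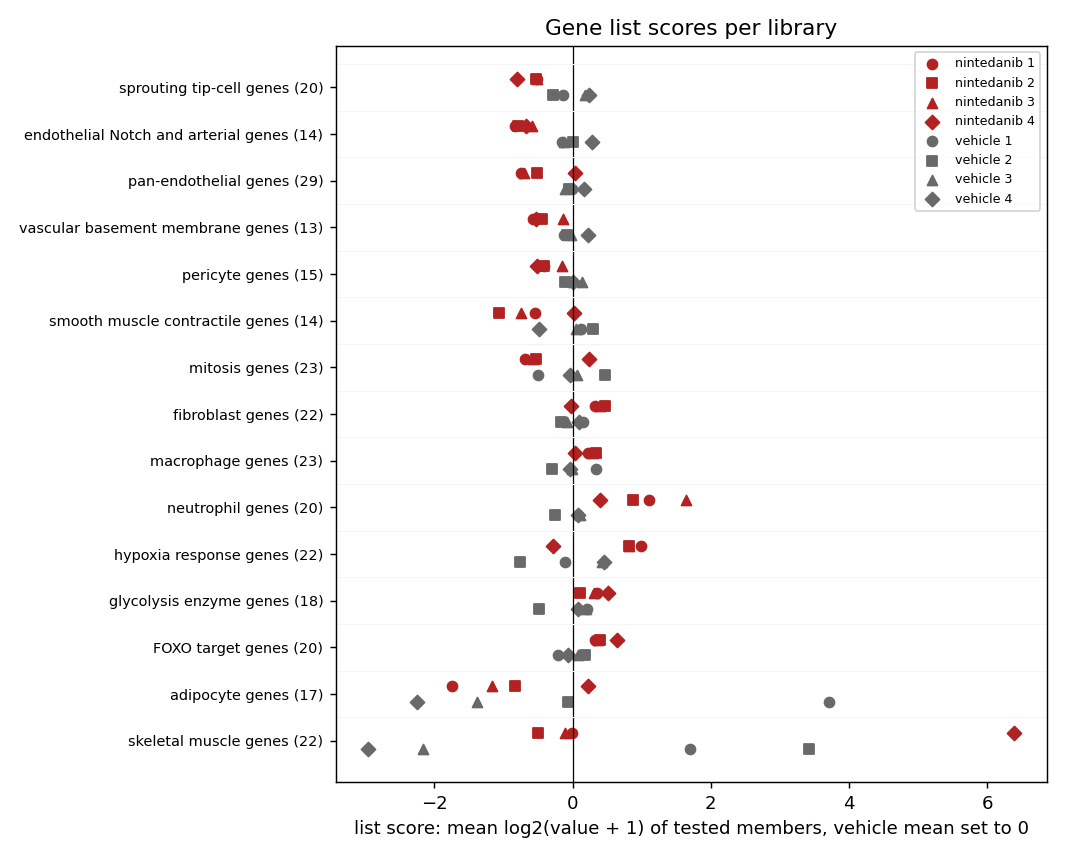
For 15 gene lists, each symbol is the list score of a library: the mean of log2(value + 1) over the tested members (number in brackets), with the vehicle mean set to 0. Tip-cell and Notch scores of the 4 nintedanib libraries lie below all vehicle libraries. So do basement membrane scores (highest nintedanib -0.14, lowest vehicle -0.12) and pericyte scores (-0.16 and -0.11). Neutrophil and FOXO target scores of the 4 nintedanib libraries lie above all vehicle libraries. Nintedanib 4 (diamond) lies apart from the other nintedanib libraries for pan-endothelial, mitosis and hypoxia genes and at 6.39 for skeletal muscle genes.

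Lists of neighbouring host tissue varied widely between libraries of the same group. Skeletal muscle genes had a median of 1.50 over 22 tested, all above 0 with 0 at an unadjusted p under 0.05 by limma, and the median was -0.16 without nintedanib 4. Adipocyte genes had a median of -0.88 over 17 tested with 0 at that level, and 0.38 without vehicle 1. Skin epithelium and hair genes (median 0.39 of 18), nerve and Schwann cell genes (-0.21 of 10) and red blood cell genes (1.04 of 6) had 0 members at an unadjusted p under 0.05 by limma, except that 2 red blood cell genes were higher at that level without nintedanib 4 or without vehicle 3. Sncg, a synuclein on the smooth muscle list that fat also expresses, stood at 3.73, 8.30, 4.69 and 24.3 with nintedanib, against 204, 44.8, 26.6 and 31.4 with vehicle, and its highest value was in vehicle 1, the library rich in adipocyte genes.

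The nintedanib contrast was also read on top of alpelisib, in 8 libraries that share none with the comparison above. In both drugs minus alpelisib, limma called 0 of 17484 genes (0.0%) at an adjusted p under 0.05 and 1007 (5.76%) had an unadjusted p under 0.05, with 485 higher (2.77%) and 522 lower (2.99%). DESeq2 called 26 of 14587 (0.178%), of which 7 were also among its 29 calls for nintedanib minus vehicle, which is 24.1% of the 29 and 26.9% of the 26. The 7 are Cxcl13, Cilp and Id2, all higher, and Notch4, Chst1, Mest and Cdc42ep1, all lower, in both comparisons. Pearson r between their mouse values and the human namesake over 16 libraries ran from -0.25 for Notch4 to 0.66 for Id2. The part of human reads in these values was not tested. Of the 1051 genes at an unadjusted p under 0.05 for nintedanib minus vehicle, 747 (71.1%) had the same sign in both drugs minus alpelisib, against 10108 of all 17484 genes (57.8%). Among those at or above the median level, 445 of 551 (80.8%) had the same sign, against 5318 of 8742 genes at that level (60.8%). Signs were also the same for 22 of 22 skeletal muscle genes and 15 of 17 adipocyte genes, but for 4 of 18 skin genes. Skeletal muscle genes took 3.30% of mouse reads in combination 1 and 5.12% in nintedanib 4. Adipocyte genes took 0.558% in alpelisib 4 and 0.648% in vehicle 1. The part of such tissue content in the shared signs was not tested.

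The vascular lists did not all have like values in both comparisons. The pan-endothelial median was -0.65 in both drugs minus alpelisib and -0.57 in nintedanib minus vehicle, with 26 of 29 members of the same sign. The tip-cell median was -0.57 and -0.62 in the same order, with 16 of 20 of the same sign, and the Notch median was -0.64 and -0.48 with 12 of 14. The capillary and venous median was -0.36 in both, with 10 of 15 of the same sign, and the basement membrane median was -0.22 and -0.35 with 10 of 13. The pericyte median was -0.05 in both drugs minus alpelisib and -0.37 in nintedanib minus vehicle, with 9 of 15 of the same sign and 1 and 4 members lower at an unadjusted p under 0.05. Smooth muscle genes had medians of -0.26 and -0.42 with 13 of 14, and lymphatic endothelial genes had medians of opposite sign, -0.22 and 0.35, with 6 of 11. On the log2 scale, Cxcl13 differed by 2.38 between both drugs and alpelisib, Cilp by 1.37 and Id2 by 1.20. Notch4 differed by -1.41, Mcam by -0.63 and Trp53i11 by -1.87. The limma adjusted p of each was 0.18 or more. For Cxcl13 these groups overlapped, with combination 1 at 45.8 and alpelisib 3 at 53.7. All 22 hypoxia genes were above 0 in this contrast too (51.4% of all genes), with a median of 0.67, and all 23 mitosis genes were below 0 (48.5% of all genes), with a median of -0.63. At an unadjusted p under 0.05 there were 11 lower pan-endothelial genes, 9 lower tip-cell genes, 10 lower mitosis genes and 7 higher hypoxia genes in both drugs minus alpelisib.

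Neutrophil and skin genes did not run alike in the 2 contrasts. The skin median was -0.97 in both drugs minus alpelisib and 0.39 in nintedanib minus vehicle. Skin genes took 0.336% of mouse reads in alpelisib 1, against 0.0438% to 0.0562% in the other alpelisib libraries and 0.0327% to 0.0986% with both drugs. The part of alpelisib 1 in the skin median was not tested. The neutrophil median was 0.03 in both drugs minus alpelisib and 1.0 in nintedanib minus vehicle, with 11 of 20 members of the same sign. S100a8 differed by 0.37 and Stfa2 by 0.54 between both drugs and alpelisib. Mean S100a8 values were 643 with nintedanib, 159 with vehicle, 449 with both drugs and 358 with alpelisib. Mean Stfa2 values were 35.9, 2.73, 7.38 and 7.95 in the same order. Neutrophil list scores ran from 0.40 to 1.63, -0.26 to 0.10, 0.05 to 0.99 and 0.01 to 1.25 in that order too. The difference of the 2 contrasts, tested as an interaction in the limma fit, called 0 of 17484 genes at an adjusted p under 0.05 (0.0%), with 545 at an unadjusted p under 0.05 (3.12%), and edgeR and DESeq2 also called 0. The interaction was -1.47 for S100a8, -2.82 for Stfa2, -1.71 for Metrn, 1.64 for Taf5 and 2.26 for Ska1 on the log2 scale, none past the adjusted threshold. So a different response with and without alpelisib was not detectable for any gene at this depth and number of libraries.

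**Figure D5:**
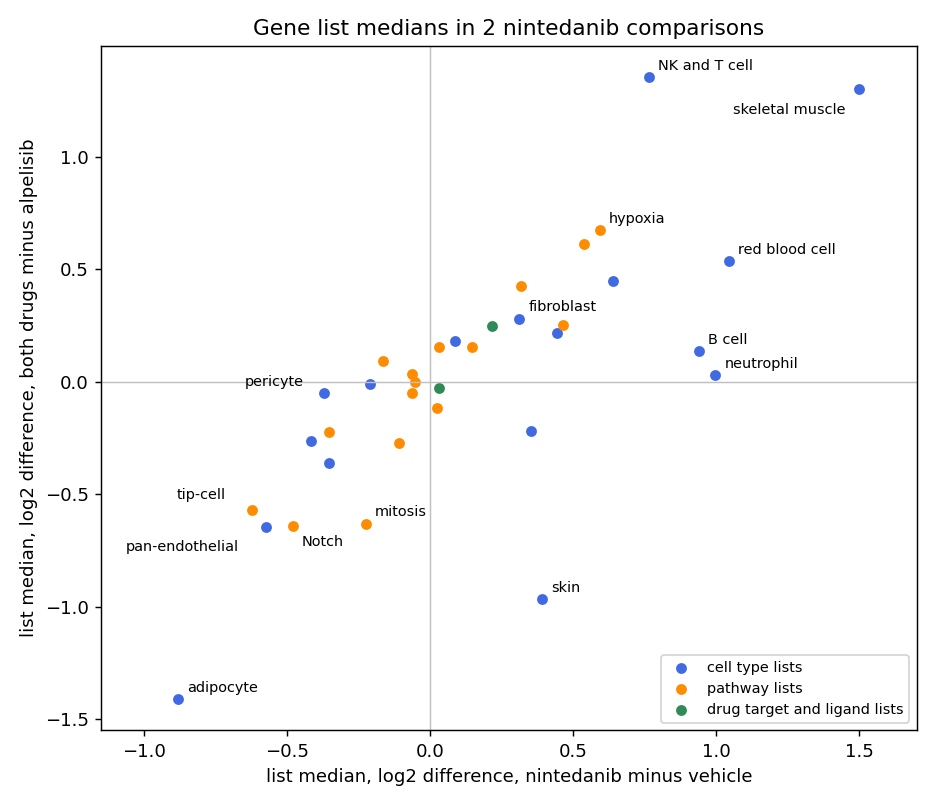
Each point is a gene list, placed by its median log2 difference for nintedanib minus vehicle (x axis) and for both drugs minus alpelisib (y axis), 2 comparisons without a common library. Pan-endothelial, tip-cell, Notch and adipocyte genes lie at the lower left, and hypoxia and skeletal muscle genes at the upper right. Neutrophil genes (1.0 on the x axis, 0.03 on the y axis), B cell genes (0.94 and 0.14), lymphatic endothelial genes (0.35 and -0.22) and skin genes (0.39 and -0.97) are among the lists whose medians differ between the comparisons.

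Nintedanib was compared with alpelisib directly as well, a comparison that uses the same nintedanib libraries. By limma 0 of 17484 genes passed the adjusted threshold (0.0%) and 1173 (6.71%) had an unadjusted p under 0.05, and DESeq2 called 7 of 15264 (0.0459%). Pan-endothelial genes had a median of -0.52, tip-cell genes of -0.42 and Notch genes of -0.41 relative to alpelisib. Cdh5 differed from alpelisib by -0.85, Notch4 by -0.98, Cxcl13 by 2.08, Cilp by 1.20 and Id2 by 0.95, while Mcam differed by -0.51 and Flt1 by 0.18. Mitosis genes had a median of -0.70, hypoxia genes of 0.65 and neutrophil genes of 0.35 in this comparison.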

How the data were processed

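RNA of 16 ScaBER xenograft libraries was sequenced from 3′ ends with the QuantSeq kit and 75-bp reads, per the labels' protocols. Reads were mapped separately to human and mouse, per the labels, with TopHat and builds hg19 and mm10, per the submitters' processing notes. Which counter, gene annotation and scaling were used is not stated. The deposited tables hold a normalized signal per gene and library, made by the authors, and 100% of values above 0 were whole multiples of 1 step within a tolerance of 0.01 read, so whole reads were recovered. Depth per library was 3606008 to 6850491 mouse and 8303617 to 18568119 human reads, without molecular identifiers, so depth gives counting error only.

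The mouse table was analysed as log2(value + 1), and genes at or above 1 in 4 or more of 16 libraries were kept. limma 3.58.1 (lmFit, eBayes with trend, R 4.3.3) was fitted to all 16 libraries with 1 mean per group, with Benjamini-Hochberg adjustment across the 17484 genes and a threshold of 0.05. The steps were tested on simulated data, with 100 genes changed by 1 log2 unit and 100 by 2 log2 units. All changed genes were drawn from those at or above the median of the mean values of the 8 libraries. Recovery of lower genes was therefore not tested. At the adjusted threshold limma recovered 18 of the first 100 and 92 of the second. Of its 118 calls, 6.78% were false. Changes of 1 log2 unit were thus mostly missed in the simulation. Alternatives were edgeR 4.0.16 quasi-likelihood (TMM or DESeq2 size factors), limma-voom and DESeq2 1.42.0 on recovered reads, quantile normalization, scaling to the human plus mouse total, other filters and pseudocount, no variance trend, a replicate block, tissue scores as covariates, and leaving out libraries or genes correlated with a human namesake (Pearson r over 0.7, 1077 genes). The mouse share of reads was compared by an exact permutation test. Members and the 35 gene lists (610 genes tested) were chosen with earlier results of these data known, and get no test of their own.

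Genes were named by a rule: up to 3 members of smallest p in each list among genes at or above the median level, the target kinases and their ligands, and the 3 genes of smallest p in each direction. Not every gene that met the rule is described, so the genes named are a selection. Other genes, such as DESeq2 calls, were named after their values were seen or for their known role. The counts at an unadjusted p and of groups that do not overlap were added after seeing the data. No sequence or coordinate is given, since no mouse reference was used here, and genes go by the symbols of the table. A result for 1 gene is not reported here.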

Additional observations from a re-analysis of the deposited data

Results flagged for a closer look

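In groups of 4, a library was singled out when its gap to the nearest other library, as a share of the range of the group, exceeded Dixon's 95% critical value. Of 218 sets of 4 values checked (the named genes as log2(value + 1) and the mouse share, each in nintedanib and in vehicle), 16 met this, and chance singles out about 1 in 20 groups. Nintedanib 4 stood apart for Gja5 (2.21, others 0), Hey2 (1.11, others 0), Ldha (4236, others 2519 to 2747), Dio3 (174, others 65.5 to 73.8) and Bnip3 (343, others 739 to 829). Nintedanib 1 stood apart for Lyn (563, others 756 to 793) and Hoxc9 (340, others 210 to 227), and nintedanib 3 for Myh11, smooth muscle myosin (154, others 75.7 to 82.9). Vehicle 1 stood apart for Flt4 (152, others 87.1 to 92.9), Vegfb (219, others 142 to 153), Gm5483 (4.61, others 0), Fbln2 (1225, others 2098 to 2318) and Wfdc2 (62.7, others 0). Vehicle 2 stood apart for Tie1 (144, others 187 to 190), and vehicle 4 for Klrb1c (2.73, others 0) and Tpsab1 (1.36, others 14.9 to 19.4).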

How the results depend on the processing

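For nintedanib minus vehicle, limma called 0 genes as reported, 1 with only the 8 libraries (Cxcl13), 2 without genes correlated with their human namesake (Gm5483 and Mcam), 3 with tissue scores as covariates (Cxcl13, Gm5483 and Prg4), 3 without the muscle-rich libraries nintedanib 4 and combination 1 (Tie1, S100a8 and S100a9), and 0 to 1 without any single library (Gm5483 without vehicle 1), while DESeq2 called 29. For both drugs minus alpelisib, 1 gene (Cxcl13) passed with covariates and 1 without the muscle-rich libraries, and DESeq2 called 26; for nintedanib minus alpelisib DESeq2 called 7. The other alternatives run for these comparisons called 0. Same-numbered nintedanib and vehicle libraries had deviations correlated at -0.02, -0.13, 0.13 and -0.33. These few values cannot exclude a pairing, and the labels do not say what a shared number means. The fit with a replicate block called 0 genes. Of 108 genes named, 6 changed sign under some alternative. Fgfr3 stood at -0.0022 with covariates, -0.049 with edgeR TMM, -0.048 with edgeR and DESeq2 size factors, -0.049 with DESeq2, and -0.18 to 0.28 over the libraries left out singly. Scaled to human plus mouse reads, Fgfr2 stood at 0.017 and Col1a1 at 0.025. Without the muscle-rich libraries Col1a1 stood at 0.17 and Mmp9 at 0.11. Leaving out libraries singly gave -0.28 to 0.17 for Col1a1, -0.47 to 0.11 for Mmp9, -0.33 to 0.074 for Fgfr2, -0.85 to 0.015 for Flt4 and -2.0 to 0 for Wfdc2. The causes were not tested. The mouse share differed by 1.16 to 5.03 points without any single library, and by 0.29 as a log2 ratio (exact permutation p = 0.257). Of 805 list medians over 23 alternatives, 785 moved by less than the spread between replicates. That spread is wide for lists of variable tissue. The changes of sign for skeletal muscle genes without nintedanib 4 and adipocyte genes without vehicle 1 fall within it. The count therefore does not show that list medians are stable. Low genes such as the stefins and Notch targets rest on few reads.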
